A study of Homo sapiens with 2 samples.

Results

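The 30 genes described here are direct transcriptional targets of p53, compared between SF-539 glioblastoma cells with and without knockdown of FKBP9. They were taken by name from the protein-coding genes of the deposited expression table, and are 30 of the 19951 protein-coding genes and of the 58735 genes listed in it. All 30 were found, and 25 of them had a mean level of at least 1 FPKM (fragments per kilobase, relative to all mapped fragments) over the 2 libraries. The other 5 (BTG2, TIGAR, TNFRSF10A, SPATA18 and EDA2R) were below that level and were left out of the counts, but their values are given.

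SF-539 is an established human glioblastoma cell line, and both libraries came from cultures at passages 15 to 18 grown in DMEM with fetal bovine serum. The shControl cells carried the control lentiviral vector pGIPZ, and the shFKBP9 cells carried an shRNA against FKBP9, a peptidyl-prolyl isomerase of the endoplasmic reticulum. Both were selected with puromycin as stable clones, so both had been through infection and selection. Each condition was sequenced as 1 library, and which of the study's FKBP9 shRNAs the library carries, and how many clones it holds, were not given in the sources used here. There is therefore no replicate check on any difference below, and every interval covers counting error only, so that it compares these libraries and not the conditions. An effect of the shRNA cannot be told apart from a difference between the selected cultures. In RNA from a whole culture, fewer cells of a kind and less RNA per cell cannot be told apart either.

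p53 is a transcription factor that is held low in unstressed cells, mainly because MDM2, itself a p53 target, marks it for degradation. DNA damage and other stresses stabilise it, and it then binds a consensus of paired decamers near its target genes and raises their transcription. The products stop the cell cycle, repair DNA, feed back on p53, or promote cell death, and in glioblastoma the pathway is often inactivated, for instance at MDM2, MDM4 or CDKN2A.

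Sequences that match this consensus are shown first, because they are the feature by which p53 recognises its targets. Windows of 2500 bases on either side of the canonical transcription start (GENCODE release 44, hg38) were searched for a pair of decamers separated by 0 to 3 bases, allowing 2 mismatches in all and none at the core C at position 4 or the core G at position 7 of each decamer. The consensus is its own reverse complement, so that a single search covers both strands. The matches below are those of the 6 members that have one and were higher or lower beyond their counting intervals, together with ZMAT3 and DDB2, which have 0 mismatches, and FAS, which also has a match in a shorter promoter window. TIGAR, with a mean under 1 FPKM, also has a match with 0 mismatches, which is not shown. The matches are written 5′ to 3′ along the gene, with the 4 central bases of each decamer in capitals. Where a window held several, as for PLK2, DDB2 and TRIAP1, the match with the fewest mismatches and then the nearest to the start is shown.
CDKN1A: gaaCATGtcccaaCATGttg
GADD45A: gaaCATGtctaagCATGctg
PLK2: aaaCATGcctggaCTTGccc
ZMAT3: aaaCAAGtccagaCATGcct
MDM2: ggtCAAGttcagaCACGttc
TRIAP1: gggCAAGttcctgaatCTTGcta
DDB2: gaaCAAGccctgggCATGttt
FAS: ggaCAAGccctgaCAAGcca
AEN: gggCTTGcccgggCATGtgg

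The CDKN1A match lies at chr6:36676449-36676468, upstream of the canonical start at a position of -2256, and overlaps the beginning of the deposited span of the gene. The PLK2 match, at chr5:58462274-58462293, also lies upstream of its canonical start, as do those of TRIAP1 at chr12:120446929-120446951 and AEN at chr15:88621306-88621325. The AEN match is at a position of -25 and falls inside the deposited span of that gene. Distances are from the canonical start, before which both deposited spans begin. The matches of ZMAT3 (chr3:179070188-179070207), MDM2 (chr12:68808923-68808942) and FAS (chr10:88991309-88991328) lie in intron 1, and that of GADD45A (chr1:67686775-67686794) in intron 3. The DDB2 match, at chr11:47214979-47214999, sits in the untranslated part of exon 1. The matches of PLK2, ZMAT3 and DDB2 have 0 mismatches, that of GADD45A has 1, and the other 5 have 2.

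A match was present in 17 of the 30 members (56.7%), against 2857 of 19831 protein-coding genes (14.4%) searched in the same way. The members were chosen as known p53 targets, so the choice itself favours matches, here and in the shorter windows. In the shorter RefSeq promoter windows (GRCh38.p14, 250 bases before to 50 after the start), which were found for 24 members and can use another start than the canonical transcript, 4 held a match (AEN, DDB2, FAS and MDM2), or 16.7% against 185 of 14896 genes (1.24%). The MDM2 and FAS matches, in intron 1 of the canonical transcripts, are upstream of the RefSeq starts used there, at positions of -94 and -122. The members without a match in the wider window were MDM4, PPM1D, PLK3, POLH, XPC, TNFRSF10A, PHLDA3, TP53I3, PERP, TP53INP1, CYFIP2, FDXR and SESN1. A match is a description of the letters and not evidence of binding, and its absence says only that these letters are not in this window.

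The knockdown was read first, as it checks the labels. FKBP9 was at 49.8 FPKM (4659 fragments) in shControl and at 4.68 FPKM (415 fragments) in shFKBP9, giving a log2 ratio of -3.38 with a 95% interval of -3.56 to -3.27. The libraries held 18116873 and 17158514 fragments on genes, and 1 fragment on a gene of 1 kilobase was worth 0.0552 and 0.0582 FPKM. Of the glial and glioma markers, VIM (277 and 295 FPKM), CD44 (48.6 and 55.6 FPKM) and EGFR (12.6 and 12.7 FPKM) had the highest levels, and NES was at 2.36 and 2.17 FPKM. PDGFRA was lower in shFKBP9, at 1.46 and 0.976 FPKM, with a log2 ratio of -0.54 and an interval of -0.87 to -0.29. The other 5 were under 1 FPKM, namely OLIG2 (48 and 41 fragments), GFAP (43 and 29), SOX2 (4 and 7), S100B (0 and 1) and AQP4 (0 in both). The labels call the cells epithelial glioma cells, and of 5 epithelial markers KRT8 was at 1.28 and 1.09 FPKM, whereas EPCAM had 11 and 14 fragments, KRT18 9 and 5, KRT19 4 and 2, and CDH1 0 and 1. Fragments on 6 keratinocyte genes went from 9 to 65 and those on 9 blood and immune genes from 6 to 44, and the part of this in the results below was not tested.

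Against this fall of FKBP9, the 25 tested members stayed close to their control levels, as most genes did. Their median absolute log2 ratio was 0.14, against 0.13 for all genes with a mean of at least 1 FPKM. All 25 tested members lay within a margin of 0.32 on the log2 scale, which stands for a level 25% higher or 20% lower than in the control library, and so did 87.8% of the 10220 protein-coding genes with a mean of at least 1 FPKM. CDKN1A, MDM2, GADD45A, PLK2 and TRIAP1 were slightly higher in shFKBP9, by more than their counting intervals, and XPC, PHLDA3, TP53I3 and AEN were slightly lower. Summed over the 30 genes, the level was 368.2 and 372.8 FPKM.

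The counts put these members beside all genes. No member passed 2-fold, against 0.147% of genes higher and 0.127% lower. None passed the margin of 0.32, against 5.56% of genes higher and 6.6% lower. The counting interval lay above 0 for 5 of 25 members (20%), against 19.7% of all genes, and below 0 for 4 (16%), against 24%. The balance of the background depends on scaling, as scaling by the median ratio of genes turned 2012 genes above 0 and 2455 below into 2355 and 2076. Taken both ways, 9 members (36%) had an interval that left out 0, against 43.7% of all genes, so the share of members off 0 was no larger than the background. The median log2 ratio of the 25 members was 0.03 (quartiles -0.15 and 0.10, range -0.29 to 0.26), with 14 higher and 11 lower, whereas that of all genes was -0.02 (quartiles -0.14 and 0.12). The members were not measured more deeply than other genes, since the median member had 1148 fragments over both libraries and the median gene 1412.5.

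The counts also bound what could have been missed through counting. The interval of every one of the 25 members lay within 2-fold in both directions, and for 12 of them it lay within the margin of 0.32 as well, against 54.0% of all tested genes. The half-widths of the intervals ran from 0.06 log2 for CDKN1A to 0.44 for GDF15. For the other 13 members the interval reached past the margin.

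**Figure D1:**
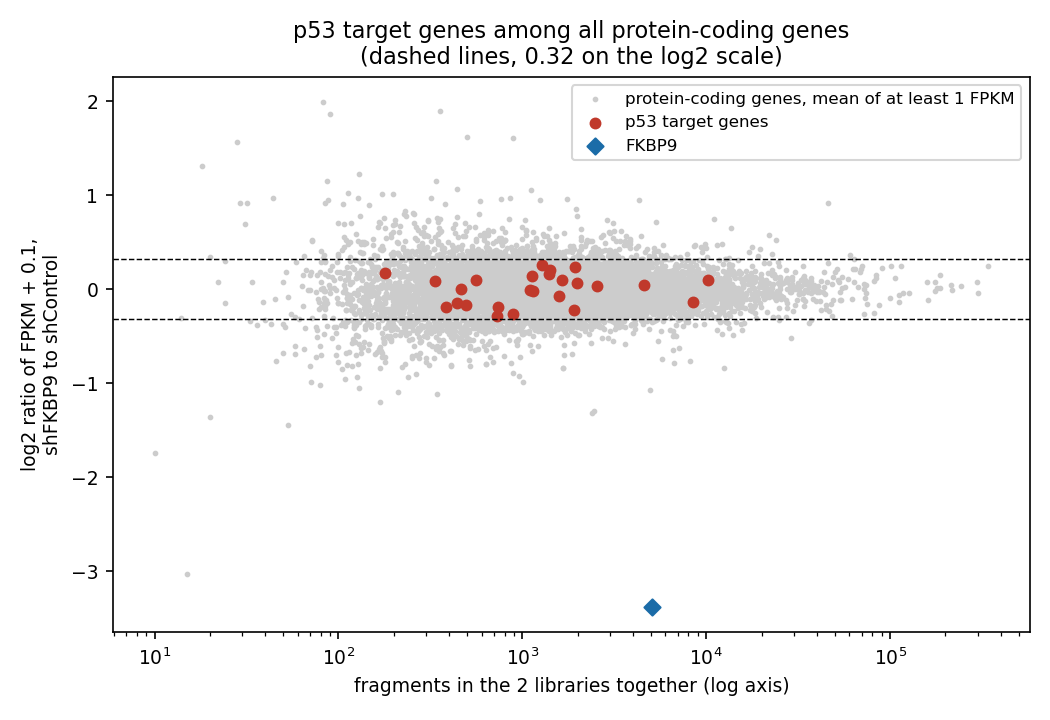
Log2 ratios of shFKBP9 to shControl, taken of FPKM + 0.1 (y axis), are plotted against the fragments in both libraries together (x axis, log scale) for protein-coding genes with a mean of at least 1 FPKM (grey, 10220 genes), with the 25 p53 targets in red and FKBP9 as a blue diamond. The red points all lie between the dashed lines at 0.32, while FKBP9 lies at -3.38.

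The order of the members by level was nearly the same in both libraries. CDKN1A was the highest at 92.1 and 98.6 FPKM, followed by PHLDA3 at 79.8 and 72.5 FPKM, and these genes together held 46.7% of the summed level in shControl and 45.9% in shFKBP9. Of the 30 members, 8 were at 10 FPKM or more on the mean, 17 between 1 and 10, and 5 under 1. Between the libraries 15 members kept their rank, and the largest shift was 2 places.

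**Figure D2:**
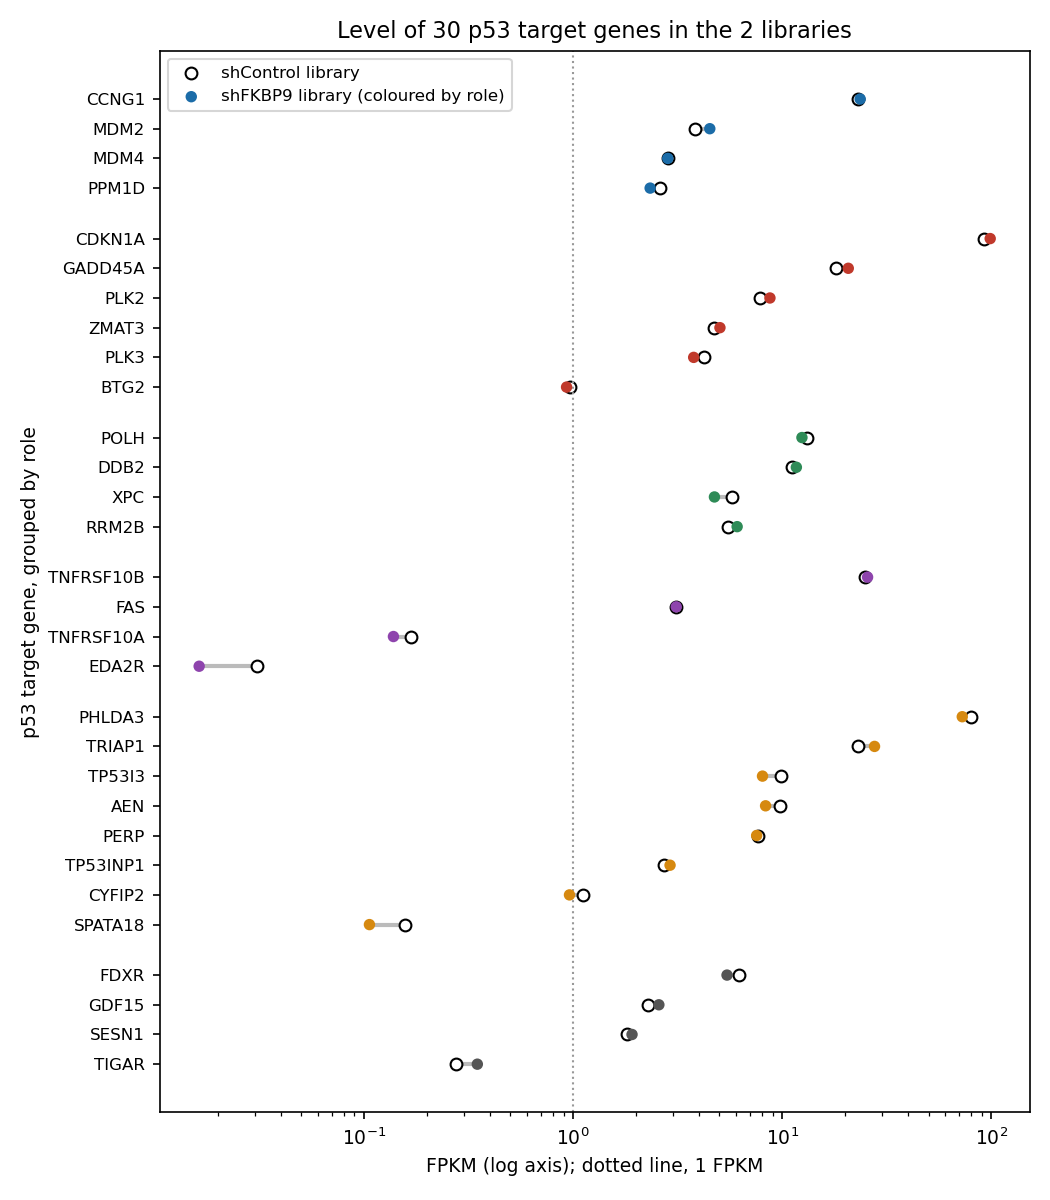
Levels of the 30 p53 targets in FPKM (x axis, log scale) are shown by gene (y axis, grouped by role), with open circles for the shControl library and filled circles, coloured by role, for the shFKBP9 library. The circles of most genes nearly touch, and the gap at EDA2R stands for 2 and 1 fragments.

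Among the feedback regulators of p53, MDM2 was the gene whose interval left out 0. MDM2, the ubiquitin ligase that degrades p53 (ENSG00000135679, chr12:68808176-68850686), was at 3.81 FPKM in shControl (916 fragments) and at 4.50 FPKM in shFKBP9 (1026 fragments). Its level was thus higher in shFKBP9, with a fold of 1.18 and an interval of 1.08 to 1.29. MDM4, its partner in restraining p53, was at 2.85 and 2.83 FPKM (569 and 535 fragments), with a log2 ratio of -0.01. PPM1D, the phosphatase that reverses damage signalling to p53, was at 2.61 and 2.33 FPKM, a log2 ratio of -0.15 whose interval of -0.44 to 0.12 included 0. CCNG1, the atypical cyclin G1, was at 23.1 and 23.6 FPKM (log2 ratio 0.03). The ratio of MDM2 to MDM4 levels was 1.33 in shControl and 1.59 in shFKBP9, and the summed level of the 4 genes was 32.4 and 33.2 FPKM. FPKM were scaled by the full gene model, which for MDM2 is 13284 bases, so that its level relative to shorter genes depends on that length.

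Of the 5 tested genes of cell cycle arrest and growth control, 3 had an interval above 0, against 19.7% of all genes, but with a 99% interval only CDKN1A did. CDKN1A, which encodes the cyclin-dependent kinase inhibitor p21 (ENSG00000124762, chr6:36676460-36687339), was at 92.1 FPKM in shControl (5084 fragments) and at 98.6 FPKM in shFKBP9 (5162 fragments). It was thus slightly higher in shFKBP9, with a fold of 1.07 and an interval of 1.03 to 1.11. GADD45A, a growth arrest protein that responds to DNA damage (ENSG00000116717, chr1:67685061-67688338), was at 18.0 and 20.7 FPKM (674 and 734 fragments). Its log2 ratio was 0.20, with an interval of 0.05 to 0.35. PLK2, a polo-like kinase (ENSG00000145632, chr5:58453982-58460260), was at 7.82 and 8.72 FPKM (675 and 714 fragments). Its log2 ratio was 0.16, and its interval only just left out 0, with a lower end of 0.004. The related kinase PLK3 differed the other way, at 4.24 and 3.77 FPKM (log2 ratio -0.17, interval -0.43 to 0.09), so the ratio of PLK2 to PLK3 was 1.84 in shControl and 2.32 in shFKBP9. ZMAT3, a zinc finger RNA-binding protein, was at 4.69 and 5.03 FPKM (log2 ratio 0.10, interval -0.04 to 0.24). The antiproliferative gene BTG2 was low in both libraries, at 0.962 and 0.930 FPKM (48 and 44 fragments). Over these 6 genes the summed level went from 127.8 to 137.7 FPKM, which is 7.78% higher, and most of it was CDKN1A.

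In the DNA repair group, XPC was lower and the others did not leave out 0. XPC, which recognises helix distortions in nucleotide excision repair (ENSG00000154767, chr3:14145147-14178783), was at 5.72 FPKM in shControl (497 fragments) and at 4.73 FPKM in shFKBP9 (390 fragments). Its fold was 0.831 with an interval of 0.723 to 0.947. DDB2, which acts in the same pathway on ultraviolet damage, was at 11.2 and 11.7 FPKM (989 and 981 fragments). Its log2 ratio was 0.06, with an interval of -0.06 to 0.19 that included 0. The ratio of XPC to DDB2 levels was 0.513 in shControl and 0.406 in shFKBP9. POLH, the translesion DNA polymerase eta, was at 13.1 and 12.4 FPKM (log2 ratio -0.08, interval -0.22 to 0.07). RRM2B, the p53-inducible ribonucleotide reductase subunit, was at 5.50 and 6.08 FPKM (log2 ratio 0.14, interval -0.03 to 0.31). The summed level of the 4 genes was 35.5 and 34.9 FPKM.

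Of the 4 death receptors, only TNFRSF10B and FAS were expressed well enough to compare, and the intervals of both included 0. TNFRSF10B, the TRAIL receptor DR5, was at 24.7 and 25.6 FPKM (2309 and 2263 fragments), with a log2 ratio of 0.05 and an interval of -0.04 to 0.13. FAS, the receptor for Fas ligand, was at 3.10 and 3.11 FPKM (239 and 227 fragments), with a log2 ratio of 0.00 and an interval of -0.27 to 0.27. The other TRAIL receptor, TNFRSF10A, had 9 and 7 fragments, and EDA2R, the ectodysplasin A2 receptor, had 2 and 1, so that no fold is given for EDA2R. DR5 was thus the highest of these 4 receptors in both libraries, with a level 147 times that of TNFRSF10A in shControl and 185 times in shFKBP9, although the latter ratios rest on few fragments of TNFRSF10A.

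The remaining cell death and survival genes were divided, with TRIAP1 higher and PHLDA3, TP53I3 and AEN lower. TRIAP1, a small mitochondrial protein that restrains apoptosis (ENSG00000170855, chr12:120443961-120446412), was at 23.1 FPKM in shControl (602 fragments) and at 27.6 FPKM in shFKBP9 (683 fragments). Its fold of 1.20, with an interval of 1.07 to 1.34, was the largest upward value among the tested members. PHLDA3, which inhibits Akt (ENSG00000174307, chr1:201464383-201469237), was at 79.8 and 72.5 FPKM (4536 and 3905 fragments), a fold of 0.908 with an interval of 0.870 to 0.948. TP53I3, a quinone oxidoreductase also called PIG3 (ENSG00000115129, chr2:24077433-24085861), was at 9.82 and 8.04 FPKM (411 and 319 fragments). Its fold of 0.820, with an interval of 0.705 to 0.950, was the largest downward value among the tested members. AEN, an apoptosis-enhancing nuclease (ENSG00000181026, chr15:88621296-88632282), was at 9.71 and 8.31 FPKM (1058 and 859 fragments), a fold of 0.858 with an interval of 0.782 to 0.938.

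For the other 4 genes of this group the interval included 0. PERP, a membrane protein of desmosomes, was at 7.63 and 7.54 FPKM, and TP53INP1, which acts in autophagy and cell death, at 2.71 and 2.90 FPKM. CYFIP2, a subunit of the WAVE complex, was at 1.11 and 0.960 FPKM (log2 ratio -0.19, interval -0.51 to 0.09). SPATA18, a gene of mitochondrial quality control, had 14 and 9 fragments. The summed level of the 8 genes went from 134.0 to 127.9 FPKM, a change of -4.55%.

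No gene of the metabolic, redox and secreted group had an interval that left out 0. FDXR, the mitochondrial ferredoxin reductase, was at 6.21 and 5.44 FPKM (405 and 336 fragments), and its log2 ratio of -0.19 had an interval of -0.41 to 0.02. GDF15, a secreted stress cytokine, was at 2.28 and 2.57 FPKM (86 and 92 fragments, log2 ratio 0.17, interval -0.27 to 0.62), and SESN1, the sestrin that restrains mTORC1, at 1.80 and 1.91 FPKM. TIGAR, a regulator of glycolysis, had 20 and 24 fragments.

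**Figure D3:**
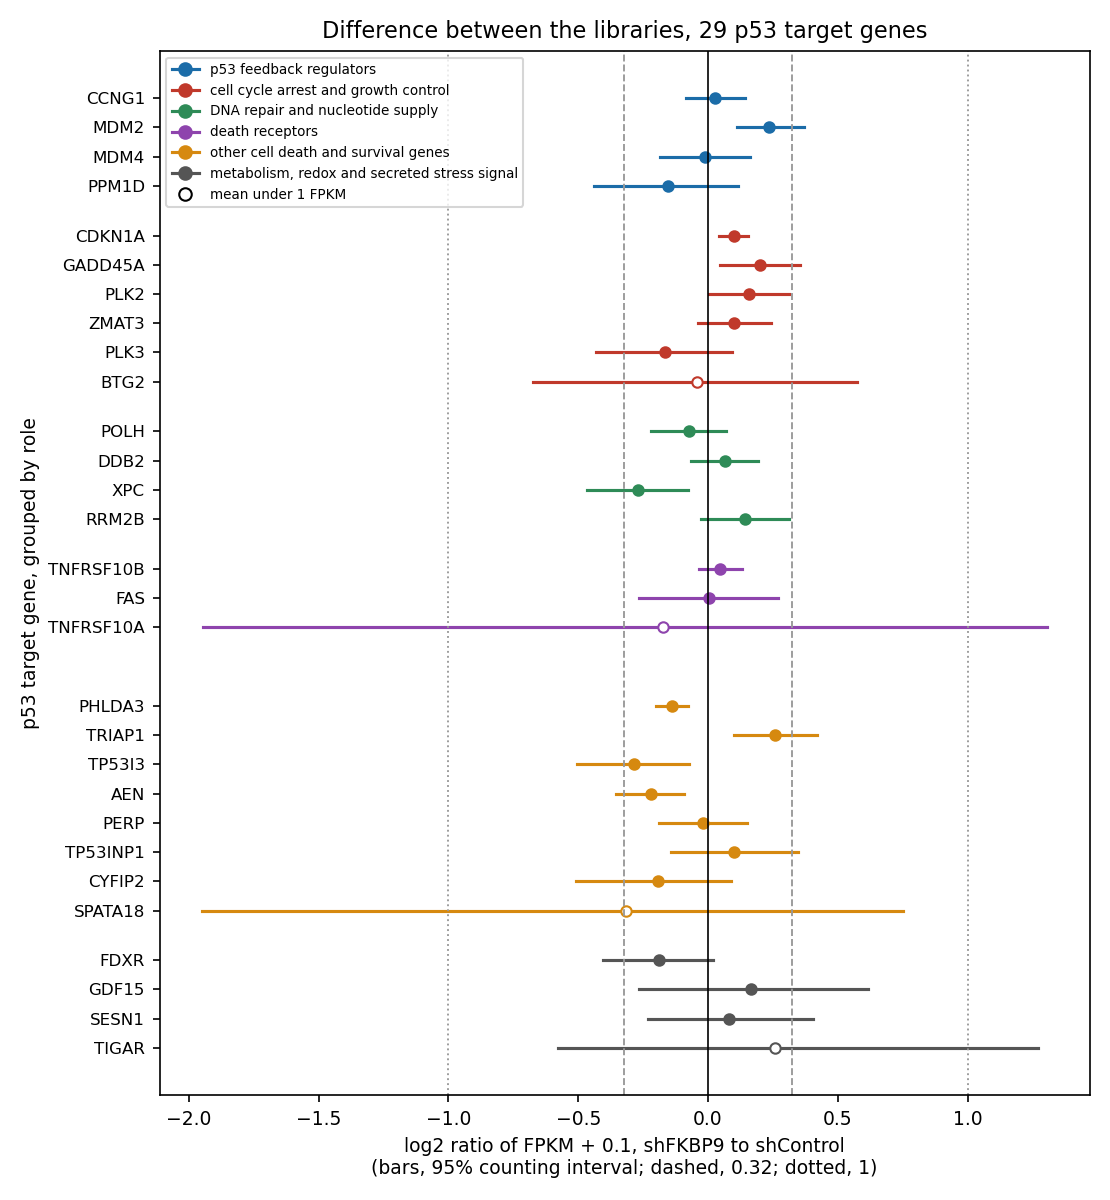
Log2 ratios of FPKM + 0.1 in shFKBP9 to shControl (x axis) are shown for 29 p53 targets grouped by role (y axis), with bars for the 95% counting interval and open circles for genes with a mean under 1 FPKM. The bars of MDM2, CDKN1A, GADD45A, PLK2 and TRIAP1 lie to the right of 0, those of XPC, PHLDA3, TP53I3 and AEN to the left, and no circle with a mean of at least 1 FPKM lies outside the dashed lines at 0.32.

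When the 25 tested members were divided by the consensus search described above, those with a match were on the higher side and those without on the lower. Of the 13 with a match, 12 were higher in shFKBP9 and AEN was lower, with a median log2 ratio of 0.10. Of the 12 without, 10 were lower and TP53INP1 and SESN1 were higher, with a median of -0.15. Over all protein-coding genes with a mean of at least 1 FPKM, the median was -0.03 for the 1400 with a match and -0.01 for the 8804 without. Of those 1400 genes 595 were higher, and of the 8804 genes 4127 were. Among the 19 tested genes of a separate list of p53 targets, 14 of the 17 without a match were higher (median 0.15), and of the 2 with a match 1 was higher (median 0.36). With 3 mismatches allowed, the median of that list was 0.13 for the 13 with a match and 0.31 for the 6 without, which is the opposite order. The division of the members was noticed after the values were known and is a description with no test. For the members it also depends on the search. With 1 mismatch allowed, 6 members had a match (median 0.12) and 19 did not (median -0.02), but with 3 allowed the 21 with a match had a median of 0.03 and the 4 without -0.03. With 3 mismatches and 1000 bases on either side the medians were 0.03 and 0.03. With 5000 bases on either side and 2 mismatches they were 0.10 with a match and -0.15 without. At 3 mismatches in that window the 22 with a match had 0.04 and the 3 without -0.14. Every tested member's ratio lies within the margin of 0.32. FAS, MDM4 and PERP, whose ratios are near 0, also change sign under another scaling of the libraries.

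The genes that act on p53 were mostly on the lower side. Of 13 family members and direct regulators of p53, 10 had a mean of at least 1 FPKM, of which 8 were lower and 2 higher, with a median log2 ratio of -0.16 (-0.05 with no minimum level), while 46.3% of all tested genes were higher. The counting interval lay below 0 for 5 of them, against 24% of all genes, and above 0 for none, against 19.7%. HUWE1, a ubiquitin ligase of p53, was the gene past the margin at -0.38, HIPK2, a kinase that activates p53, lay just inside at -0.32 but past it after scaling to TPM (-0.34) and with 0.01 FPKM added, and EP300, its acetyltransferase coactivator, was at -0.29. CDKN2A, which encodes the MDM2 inhibitor ARF, had 0 and 1 fragments, TP73 had 0 and 1, and TP63 had 6 and 6. RNA levels do not measure the p53 protein or its activity. The 6 kinases that signal damage to p53 had a median of -0.06, and none passed the margin. Of all genes, 5.56% passed it upwards and 6.6% downwards.

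Other targets of p53 were mostly on the higher side. A list of 23 other p53 targets held 19 tested genes, of which 15 were higher and 4 lower, with a median of 0.15, and the counting interval lay above 0 for 9 of them and below 0 for 2, against 19.7% and 24% of all genes. Past the margin were 5 upwards and 1 downwards, against 5.56% and 6.6% of all genes. Those above were the matrix protein gene THBS1 (log2 ratio 0.95), the BH3-only gene PMAIP1 (0.74), ACTA2 (0.56), SESN2 (0.43) and the decoy receptor TNFRSF10D (0.33, or 0.31 after scaling to TPM). LIF and TNFAIP8 lay inside the margin but passed it with median scaling, at 0.33 each. IGFBP3, a binding protein of insulin-like growth factors, was lower at -0.50. Whether p53 has a part in the differences of these genes was not tested. TP53AIP1, a mitochondrial apoptosis gene, was listed at 0 in both libraries. The summed level of the list went from 283.9 to 323.2 FPKM. The 12 genes that p53 lowers through p21 and the DREAM complex lay around a median log2 ratio of -0.01 (4 higher, 8 lower), none past the margin.

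Stress genes under ATF4 and CHOP, the transcription factors of the PERK arm of the unfolded protein response, were listed because they share targets with p53. All 8 with a mean of at least 1 FPKM were higher, with a median of 0.44, and 7 passed the margin, against 5.56% of all genes upwards, led by CHAC1 (1.89), PSAT1 (0.59) and ATF4 (0.48). The remaining gene, DDIT4, had the highest level of the list (281 and 291 FPKM) and a log2 ratio of 0.05. DDIT3, which encodes CHOP, was at 0.47, and PPP1R15A, a regulatory subunit of the phosphatase that restores translation, at 0.41. ASNS, under 1 FPKM, had 21 and 38 fragments. TRIB3, at 0.33, lay inside the margin after scaling to TPM (0.31), and both TRIB3 (0.26) and ATF3 (0.29) did with 1 FPKM added. The 3 members known as targets of these factors as well, GADD45A, GDF15 and TNFRSF10B, were at 0.20, 0.17 and 0.05, and none of them passed the margin.

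**Figure D4:**
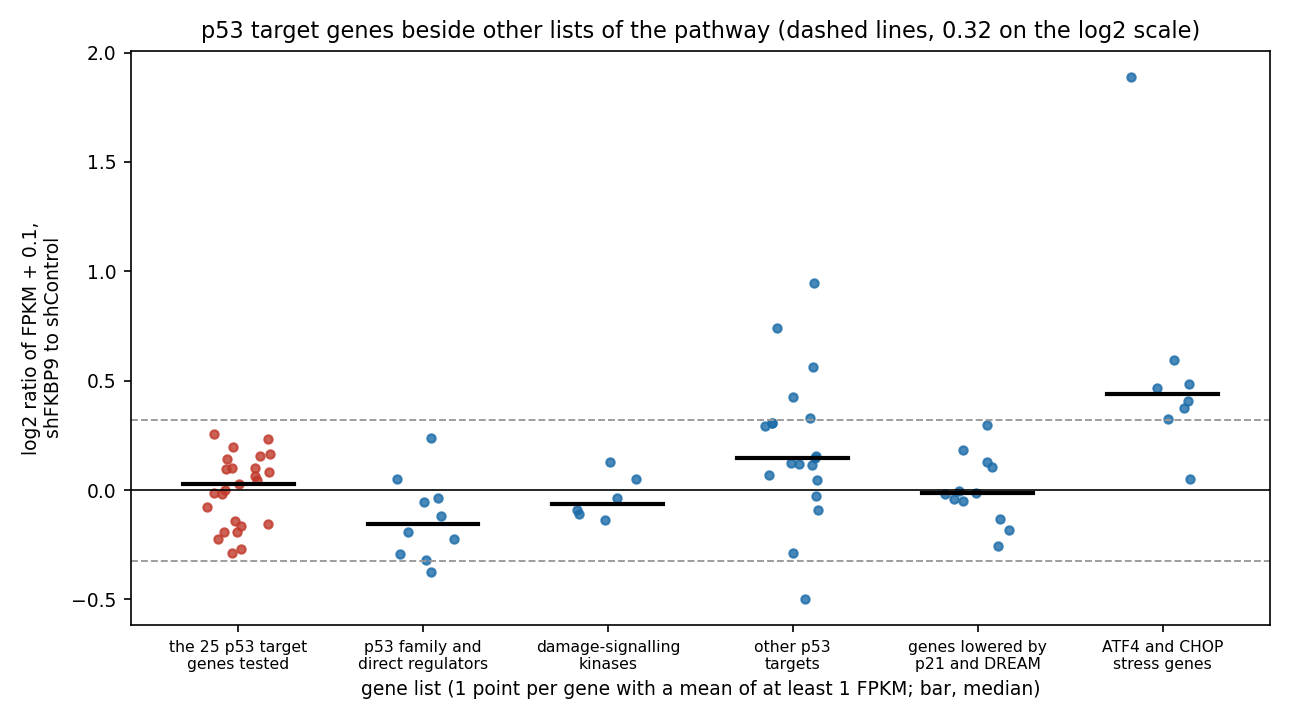
Each point is the log2 ratio of shFKBP9 to shControl, taken of FPKM + 0.1 (y axis), of a gene with a mean of at least 1 FPKM in 6 lists (x axis), with a bar for the median of each list. The 25 p53 targets centre on 0.03 inside the dashed lines at 0.32, the direct regulators of p53 on -0.16, and the ATF4 and CHOP genes on 0.44.

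Neighbouring genes limit some of these values, because 19 members overlap another gene and 17 overlap a gene on the opposite strand, and whether the counting used strand was not given in the sources used here. Without strand, reads of a gene and of its antisense partner cannot be told apart. FAS overlaps ACTA2, which had 1834 fragments in shControl and 2575 in shFKBP9, against 239 and 227 for FAS. CYFIP2 overlaps ADAM19 (1844 and 1521 fragments), XPC overlaps LSM3 (1710 and 1641), and POLH overlaps GTPBP2 (3640 and 3487). The 10 pseudogenes that the file describes as copies of 7 members had at most 3 fragments in a library. Length did not order the ratios, with Spearman's rho between gene length and log2 ratio of 0.00 across the 10220 genes, which are not independent replicates, although 6 of the 10 tested regulators of p53 fell in the longest 25% of genes.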

How the data were processed

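RNA of SF-539 cells with a control shRNA or an shRNA against FKBP9 was sequenced by the authors as 1 library per condition. Per the labels and the submitters' processing notes, reads were aligned to hg38 with HISAT2 2.0.5, counted with featureCounts 1.5.0-p3 and passed to edgeR. The annotation release and strand setting were not given in the sources used here. The authors deposited FPKM per gene, normalised for length and depth, with 0 further columns of values per library.

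FPKM times gene length, in units of each library's smallest value of that product, gave whole fragments for 100% of values (tolerance 0.001). Log2 ratios were taken of FPKM + 0.1, which understates changes of low genes, over protein-coding genes with a mean of at least 1 FPKM. The fragments gave exact Clopper-Pearson intervals (95%). A fold was not given where both libraries had at most 3 fragments. With 1 library per condition no p-value was computed, and no count test was run. The recovery of fragments, the ratios and the intervals were tested on simulated data. Python 3.11.15, pandas 2.3.3 and scipy 1.17.1 were used.

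The genes named include all 30 members. From the other p53 and stress lists they include those past a log2 ratio of 0.32 with an interval that left out 0, and those at 0. This rule was not applied to the markers. The glial and epithelial markers are all named, while the keratinocyte and the blood and immune ones are given only as sums of fragments. HIPK2, EP300, TP63, LIF, TNFAIP8, DDIT4 and the overlapping genes were named after their values were seen. Members and lists were chosen from general knowledge with earlier results of these data known. The window of 2500 bases and the division of members by consensus matches were added after the values were seen. From the other lists, 2 genes are not reported here and were left out of their counts, medians and plots.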

Additional observations from a re-analysis of the deposited data

How the results depend on the processing

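The alternatives were 1 or 0.01 FPKM added, scaling by the median ratio of genes or to TPM, no minimum, a minimum in either or in both libraries, and a 99% interval. Under each of them that bears on it, 0 members passed 2-fold or the margin of 0.32. With a 99% interval 3 members lay above 0 (MDM2, CDKN1A and TRIAP1, against 5 at 95%), and XPC, PHLDA3, TP53I3 and AEN stayed below. Scaling to TPM left 4 above 0, without PLK2. The median of the members ran from -0.00 with no minimum to 0.05 with median scaling, and the signs of MDM4, PERP (both with median scaling) and FAS (with TPM) changed, each from a ratio near 0. With 1 FPKM added FKBP9 was at -3.16, CHAC1 at 1.54 and THBS1 at 0.76, by construction of the larger addition. The background moved more. Genes past 2-fold numbered 15 higher and 13 lower, but 7 and 5 with 1 FPKM added, 122 and 126 with no minimum, and 7 and 7 with the minimum in both libraries, and 22 and 20 with it in either. Past the margin they numbered 568 and 675, but 333 and 360 with 1 FPKM added, 1552 and 1789 with no minimum, and 682 and 564 with median scaling, which turns the balance. No paired analysis was possible because each condition has 1 library. No member under 1 FPKM had an interval that left out 0, and at 2 and 1 fragments EDA2R could not be compared at this depth.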
